A study of Mus musculus with 2 samples.

Results

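R-loops were examined in 9 mouse genes of enzymes, or enzyme subunits, that remove R-loops or limit their formation: Rnaseh1, Rnaseh2a, Rnaseh2b, Rnaseh2c, Aqr, Ddx5, Dhx9, Top1 and Top3b. The genes were taken by symbol from the GENCODE M1 annotation of the mm9 genome, and they are 9 of its 22367 protein-coding genes on chromosomes 1 to 19, X and Y. R-loops had been mapped by DRIP-seq in primary NSPCs, neural stem and progenitor cells cultured from the frontal brain of C57BL/6 mice at postnatal day 7. DRIP-seq pulls down fragments of enzyme-digested genomic DNA that carry an RNA:DNA hybrid, using the S9.6 antibody, and sequences them. The cells were kept for 48 h in 0.5 µM aphidicolin, an inhibitor of replicative DNA polymerases that causes mild replication stress. The treatment is given by the study's methods and not by the sample labels, and no untreated NSPCs were compared. DNA came from 3 biological replicates, but 1 list of 22132 peaks was analysed, which gives positions alone. The values below therefore have no replicate error, the depth behind each peak is unknown, and no difference was tested. A peak was assigned to a gene when it overlapped the gene by at least 1 bp or lay within 2 kb of it, a rule that gave 11 peaks of 22132.

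An R-loop forms when a nascent RNA pairs with its template strand and leaves the other DNA strand single, which is favoured where that other strand is rich in G. Cells remove the RNA by digesting it with RNase H enzymes or by unwinding the hybrid with helicases, and topoisomerases limit the negative supercoiling behind the RNA polymerase that opens the duplex. Inherited defects of the RNase H2 subunits cause Aicardi-Goutières syndrome, an inflammatory disease of the brain.

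The cell type could be checked only through peaks in marker genes, which do not measure expression. Of 7 markers of neural stem and progenitor cells, 5 contained a peak (Sox2, Nes, Slc1a3, Vim and Hes1), and Pax6 and Fabp7 had none. None of 3 neuronal markers, 1 of 3 microglial markers (Csf1r) and 1 of 3 endothelial markers (Pecam1) contained a peak. Among all protein-coding genes the share was 39.6%, so counts in sets this small do not identify the cell type.

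R-loop peaks overlapped 6 of the 9 genes, namely Rnaseh2a, Rnaseh2c, Aqr, Ddx5, Dhx9 and Top3b, whereas Rnaseh1, Rnaseh2b and Top1 had none. Among all protein-coding genes, 39.6% were overlapped by a peak. This and the other shares of protein-coding genes include genes not transcribed in NSPCs. The paper reports that nearly all genes with R-loop peaks had active or ambiguous transcription. Transcription was not used here, so no share among transcribed genes is given. The count within 2 kb was also 6 of 9, beside 43.1% of protein-coding genes. Aqr and Rnaseh2c had 1 overlapping peak each and the other 4 genes had 2 each, and a further peak lay 1264 bp past the end of Dhx9. By the kind of enzyme, peaks overlapped 2 of 4 RNase H genes, 3 of 3 helicase genes and 1 of 2 topoisomerase genes.

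Most of the peaks held an end of the gene. The transcription start site (TSS) was inside a peak in Rnaseh2a, Rnaseh2c, Ddx5 and Dhx9, which is 4 of 9 beside 14.9% of protein-coding genes. The transcription end site (TES) was inside a peak in Rnaseh2a, Rnaseh2c, Dhx9 and Top3b, again 4 of 9, beside 10.9%. Rnaseh2a, Rnaseh2c and Dhx9 had both ends under peaks, 3 of 9 beside 4.28%. Of the 11 peaks, 7 held a TSS or a TES, and the remaining 4 were the peak of Aqr, the downstream one of Ddx5, the upstream one of Top3b and the one past Dhx9. The share of all peaks that hold a gene end was not computed. The 11 peaks were assigned for overlapping or lying near a gene, so this count is a description.

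**Figure D1:**
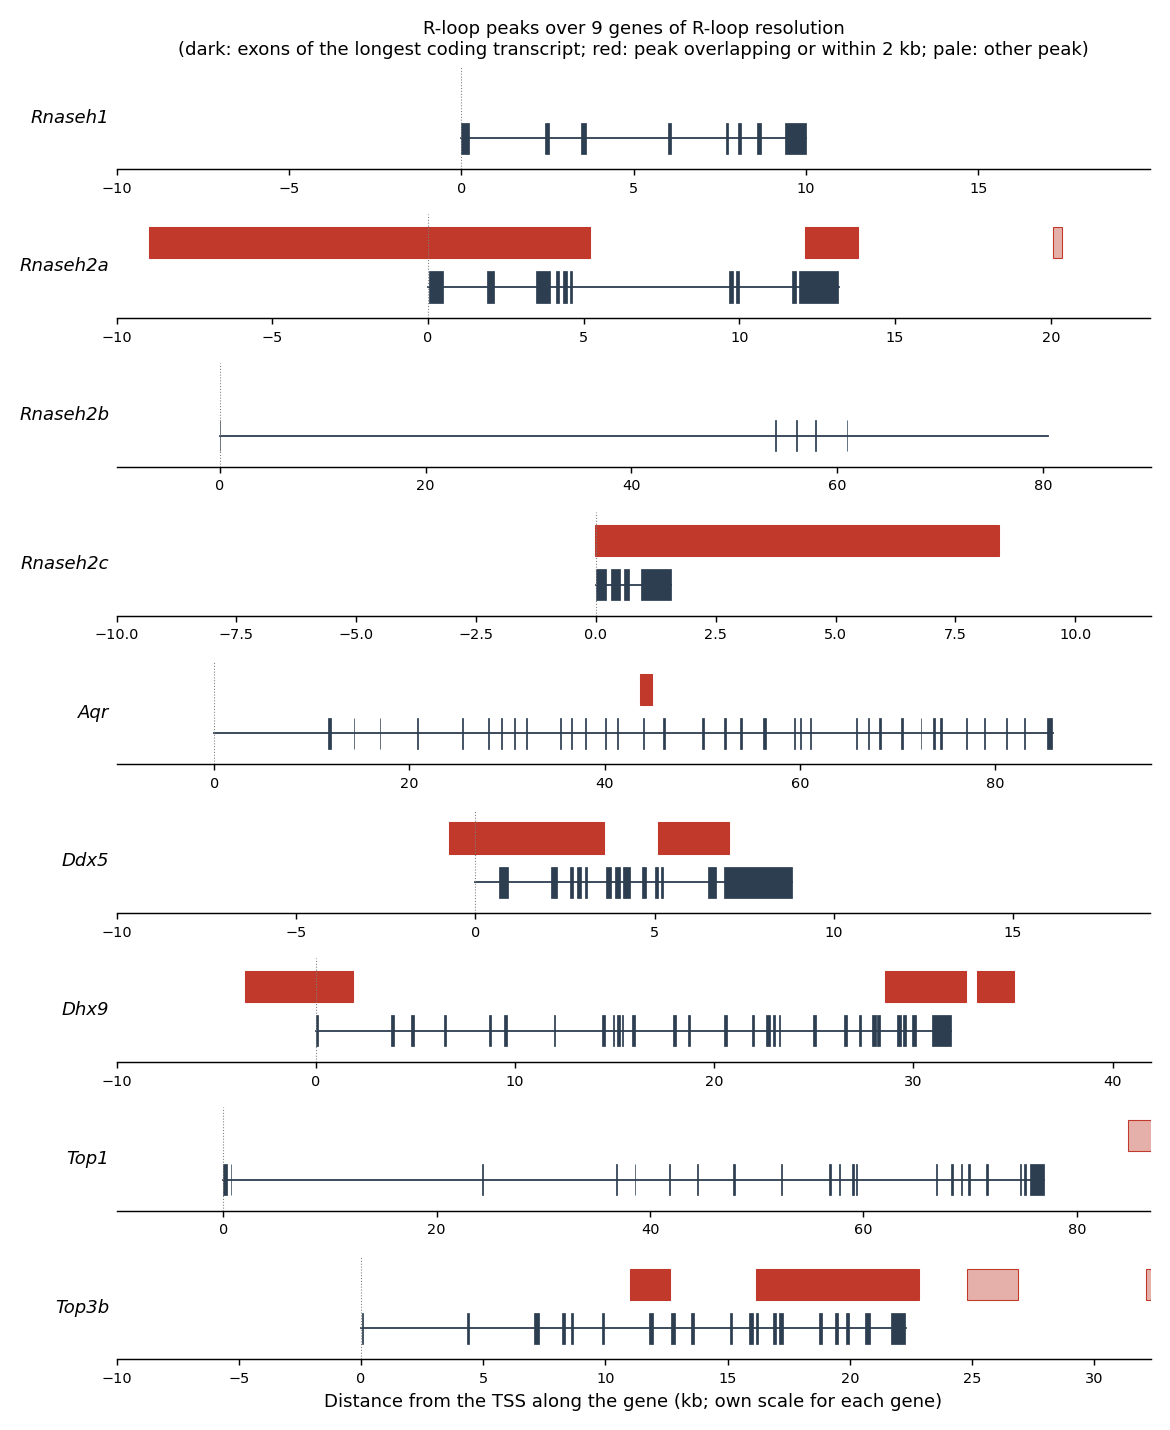
Maps of the 9 genes along the distance from the TSS (kb, a separate scale for each gene), with exons of the longest protein-coding transcript as dark boxes, the 11 peaks assigned to the genes in red and other peaks within 10 kb in pale red. Peaks cover the TSS of Rnaseh2a, Rnaseh2c, Ddx5 and Dhx9, lie at the 3′ side of Top3b and inside Aqr, and are absent from Rnaseh1, Rnaseh2b and Top1.

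To show the sequence under these peaks, the 60 bp in which G most outnumbered C on the coding strand, which an R-loop leaves single, were taken from the peak over or nearest to each TSS, outside annotated untranslated regions. Each is written 5′ to 3′ on the coding strand with runs of 3 or more G in capitals. These stretches were chosen for their G excess, so that the excess is a description and not a finding. The stretch of Rnaseh2a lies in intron 2 of Rnaseh2a-001 (chr8:87490820-87490879, minus strand, mm9), that of Rnaseh2c in the coding part of exon 2 (chr19:5602252-5602311, plus strand), and that of Dhx9 in intron 1 (chr1:155334189-155334248, minus strand). The stretch of Ddx5 (chr11:106649916-106649975, minus strand) lies upstream of Ddx5-001 and inside an intron of Ddx5-003 and Ddx5-004, which start farther upstream. Those of Top3b (chr16:16882442-16882501, plus strand, intron 6) and Aqr (chr2:113967910-113967969, minus strand, intron 15) come from peaks inside the genes.
Rnaseh2a: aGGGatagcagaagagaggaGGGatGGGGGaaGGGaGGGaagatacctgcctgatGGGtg
Rnaseh2c: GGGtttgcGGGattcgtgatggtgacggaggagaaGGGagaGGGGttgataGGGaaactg
Ddx5: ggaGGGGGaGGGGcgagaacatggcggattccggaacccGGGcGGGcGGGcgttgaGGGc
Dhx9: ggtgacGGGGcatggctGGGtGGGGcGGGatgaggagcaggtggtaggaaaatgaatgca
Top3b: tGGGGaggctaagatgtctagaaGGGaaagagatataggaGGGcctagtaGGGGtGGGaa
Aqr: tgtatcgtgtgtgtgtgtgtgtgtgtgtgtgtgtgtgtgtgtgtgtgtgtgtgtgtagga

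The stretches of the 4 genes with a peak at the TSS held 30 G and 5 C (Rnaseh2a), 30 G and 4 C (Rnaseh2c), 33 G and 12 C (Ddx5) and 31 G and 6 C (Dhx9), with 4 to 6 runs of 3 or more G each. Top3b had 27 G and 4 C with 5 such runs. Aqr differed from these in kind. Its 28 G and 1 C came from a repeat of alternating G and T with no run of 3 G, at the edge of a peak far from the TSS.

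RNase H1, encoded by Rnaseh1 (ENSMUSG00000020630, chr12:29334467-29344456, plus strand, 9.99 kb), digests the RNA of hybrids in the nucleus and in mitochondria. No peak overlapped the gene or lay within 2 kb. The nearest one, 1.99 kb wide, lay 14 kb upstream at chr12:29318495-29320488 over the ribosomal protein gene Rps7. Rnaseh1 was not in a region poor in peaks, with 4 peaks within 100 kb compared to a median of 3 over protein-coding genes. Among protein-coding genes under 10 kb long, 22.2% were overlapped by a peak.

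The 3 subunits of RNase H2, which removes RNA from hybrids and single ribonucleotides from DNA, ranged from a gene wholly under a peak to a gene with none nearby. Rnaseh2a (ENSMUSG00000052926, chr8:87480509-87493666, minus strand, 13.2 kb) encodes the catalytic subunit and had 47.7% of its length under peaks. The peak over its TSS, at chr8:87488459-87502625, was 14.2 kb wide and only 0.727% of all peaks were wider. It covered exons 1 to 6 of the 10 exons of Rnaseh2a-001 and reached 8959 bp upstream of the gene, over Prdx2, which encodes a peroxiredoxin, and Junb, which encodes a subunit of the AP-1 transcription factor. A second peak of 1.73 kb at chr8:87479850-87481574 covered the end of the last exon and reached 659 bp past the gene, overlapping part of the neighbouring gene Rtbdn. The region was dense in peaks, with 18 within 100 kb of Rnaseh2a, and 99.5% of protein-coding genes had fewer. Because the list carries no strand, it does not show from which of the overlapping genes the hybrid RNA came.

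Rnaseh2c (ENSMUSG00000024925, chr19:5601873-5603439, plus strand) encodes an accessory subunit and, at 1.57 kb, was the shortest of the 9 genes. One peak of 8.42 kb at chr19:5601856-5610279 covered all of it and ran 6840 bp past its end over Kat5, the gene of a histone acetyltransferase. The inclusion of the TSS was narrow, since the peak began 17 bp before it. At least 50% of the gene under a single peak was found for Rnaseh2c alone, 1 of 9, beside 5.07% of protein-coding genes. All 5 annotated transcripts of Rnaseh2c started inside the peak.

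Rnaseh2b (ENSMUSG00000021932, chr14:62911426-62991829, plus strand, 80.4 kb), which encodes the other accessory subunit, had no peak. The nearest one was 0.528 kb wide and lay 71.6 kb past the end of the gene at chr14:63063407-63063934, in Gucy1b2. It was the only peak within 100 kb, while 21.2% of protein-coding genes had none within that distance. For protein-coding genes of 30 to 100 kb, the share overlapped by a peak was 53.4%. The subunits of the same enzyme thus lay in regions with 18, 4 and 1 peaks within 100 kb for Rnaseh2a, Rnaseh2c and Rnaseh2b.

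Among the helicases, Aqr (ENSMUSG00000040383, chr2:113926906-114012760, minus strand, 85.9 kb) encodes aquarius, an RNA helicase of the spliceosome that binds introns. Its single peak at chr2:113967906-113969176 was 1.27 kb wide, narrower than the median of all peaks of 1.32 kb, and covered 1.48% of the gene. The peak lay 31.9 to 33.2 kb downstream of the start of Aqr-001 and spanned exon 15 of 35 with parts of the flanking introns. No annotated start of Aqr was inside a peak, and no other peak lay within 100 kb. The GC content of the peak was 40.9%, and 6.33% of all peaks had a lower one.

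Ddx5 (ENSMUSG00000020719, chr11:106641669-106650499, minus strand, 8.83 kb) encodes a DEAD-box helicase that also serves as a cofactor of the microprocessor, which cuts miRNA hairpins from their primary transcripts. It had 63.1% of its length under peaks. The first peak, at chr11:106646902-106651227, was 4.33 kb wide, contained the TSS and exons 1 to 5 of the 13 exons of Ddx5-001, and reached 728 bp upstream into Ccdc45. The starts of all 5 protein-coding transcripts were inside it. The second peak, 1.98 kb wide at chr11:106643419-106645393, lay wholly inside the gene over exons 11 to 13. It ended within the last exon, and the TES was not covered.

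The second Ddx5 peak held 2 annotated miRNA genes. One of these, AL603664.2, holds the Mir3064 hairpin of 67 bp at chr11:106644007-106644073 on the minus strand, found by matching the RefSeq hairpin to the mm9 sequence. The hairpin lies in intron 11 of Ddx5-001 except for its last base, which is the first base of the next exon. The other miRNA gene is annotated as AL603664.1. Since Ddx5 takes part in miRNA processing, the mature sequences of Mir3064 from RefSeq (GRCm38.p6) are shown with the seed, bases 2 to 8, in capitals.
mmu-miR-3064-5p: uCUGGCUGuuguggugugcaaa
mmu-miR-3064-3p: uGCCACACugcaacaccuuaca

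The seeds of both arms differ. The peak does not show whether the hybrid contained the miRNA precursor, since it also spanned introns and exons of Ddx5 on the same strand.

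Dhx9 (ENSMUSG00000042699, chr1:155302888-155334790, minus strand, 31.9 kb) encodes a DExH-box helicase that unwinds RNA:DNA hybrids and other structures. Its TSS peak, 5.43 kb wide at chr1:155332939-155338368, covered exon 1 and 1852 bp of the gene in all, and reached 3578 bp upstream. The TES peak, 4.08 kb wide at chr1:155302135-155306209, covered exons 25 to 28 of 28 and ran 753 bp past the gene. Another peak of 1.87 kb followed at chr1:155299756-155301624, beyond the TES. Peaks covered 16.2% of Dhx9, near its ends, and exons 2 to 24 were outside them.

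The TES peak had a low GC content of 39.8%, with only 4.13% of all peaks below it, yet it contained the stretch of largest G excess among those drawn from the peaks of these genes. This stretch, 37 G and 2 C at chr1:155303451-155303510 on the minus strand, lies in the coding part of exon 28, which encodes the glycine-rich tail of the protein. The codons for glycine begin with GG.
Dhx9, last exon: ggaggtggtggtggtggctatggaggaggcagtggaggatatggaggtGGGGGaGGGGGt

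The topoisomerases differed from each other. Top1 (ENSMUSG00000070544, chr2:160471624-160548500, plus strand, 76.9 kb), which encodes the main enzyme that relaxes supercoils during transcription, had no peak, although 10 peaks lay within 100 kb and 87.7% of protein-coding genes had fewer. The nearest was 2.37 kb wide, 7.93 kb past the end of the gene at chr2:160556433-160558799, over Plcg1. Top3b (ENSMUSG00000022779, chr16:16870829-16893083, plus strand, 22.3 kb) encodes a type IA topoisomerase that acts on DNA and RNA. It had 34.8% of its length under 2 peaks, both in the downstream part of the gene.

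The wider peak of Top3b, 6.67 kb at chr16:16887002-16893673, covered exons 12 to 19 of the 19 exons of Top3b-004 and the TES, and the narrower one, 1.65 kb at chr16:16881826-16883477, covered exon 7. Another peak of 2.1 kb lay 2539 bp past the gene over Ppm1f and so outside the 2 kb limit. Of 10 protein-coding transcripts of Top3b, 9 started outside a peak, and Top3b-012, with its start at 16890319, began inside the wider one. For protein-coding genes of 10 to 30 kb, the class of Rnaseh2a and Top3b, 44.1% were overlapped by a peak.

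**Figure D2:**
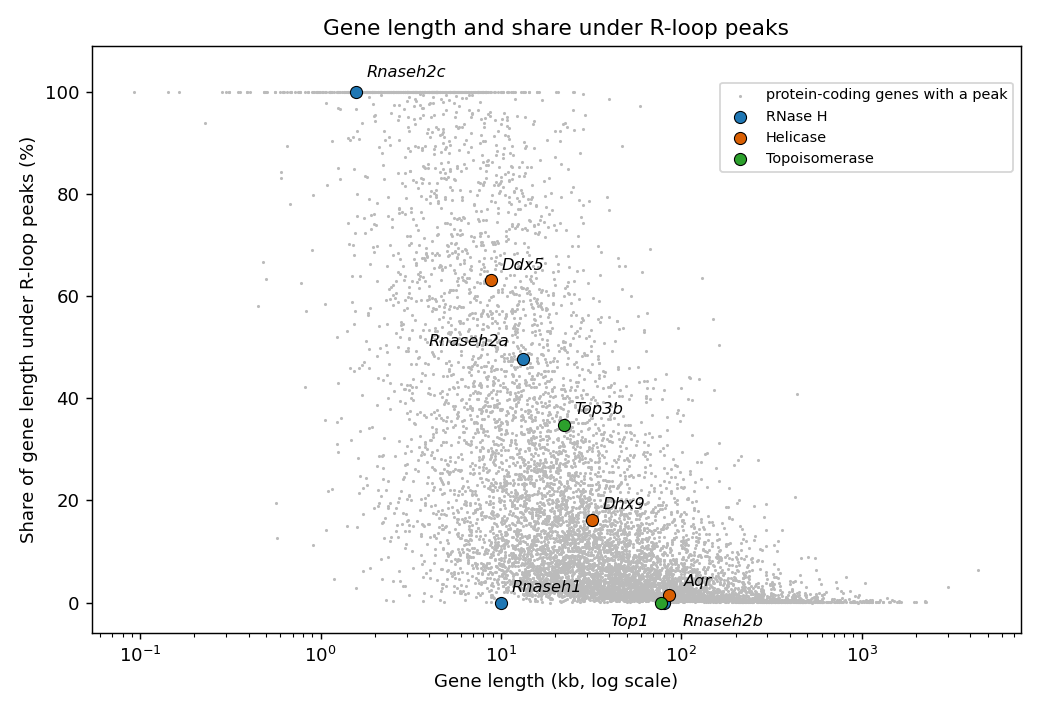
Share of gene length under R-loop peaks (%) against gene length (kb, log scale), with a grey point for each protein-coding gene that has a peak and a labelled point for each of the 9 genes, coloured by kind of enzyme. Among the genes with a peak the share, of which gene length is the divisor, falls from 100% for Rnaseh2c, the shortest, to 1.48% for Aqr, the longest. Rnaseh1, Rnaseh2b and Top1 lie at 0.

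Over the 6 genes with a peak, the share of the gene under peaks fell in the order of their lengths, from Rnaseh2c through Ddx5, Rnaseh2a, Top3b and Dhx9 to Aqr. Gene length is the divisor of this share. With few peaks per gene the share tends to fall as length grows, so the order is a description and not a finding. The median was 41.2% in these 6 genes, compared to 10.4% in protein-coding genes with a peak, which are of all lengths. No comparison with genes of like length was made. Over all 9 genes, those without a peak included, the median was 16.2%, which has no like value among protein-coding genes here. Longer protein-coding genes were more often overlapped by a peak, with 63.8% of those of 100 kb or more, but none of the 9 genes is that long. The genes without a peak were of 9.99, 76.9 and 80.4 kb, within the range of 1.57 to 85.9 kb of those with one.

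The 11 peaks were wide. Their widths ran from 1.27 kb (Aqr) to 14.2 kb (Rnaseh2a) with a median of 4.08 kb, compared to 1.32 kb over all peaks, and 10 of 11 exceeded this median. A width of 4 kb or more was found in 6 of 11, beside 14.8% of all peaks. These 6 were the ones at the TSS of Rnaseh2a, Rnaseh2c, Ddx5 and Dhx9 and at the TES of Dhx9 and Top3b. The limit of 4 kb was not part of the plan, and the narrowest of the 6 was 4.08 kb. At a limit of 10 kb only the Rnaseh2a peak remained, beside 1.94% of all peaks. A wider peak is also more likely to meet the rule of assignment and to reach an end of a gene or a neighbouring gene. The widths of all peaks in or near genes are not given here. Of the 11 peaks, 4 overlapped another protein-coding gene, while of all peaks in protein-coding genes 9.32% overlapped at least 2.

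**Figure D3:**
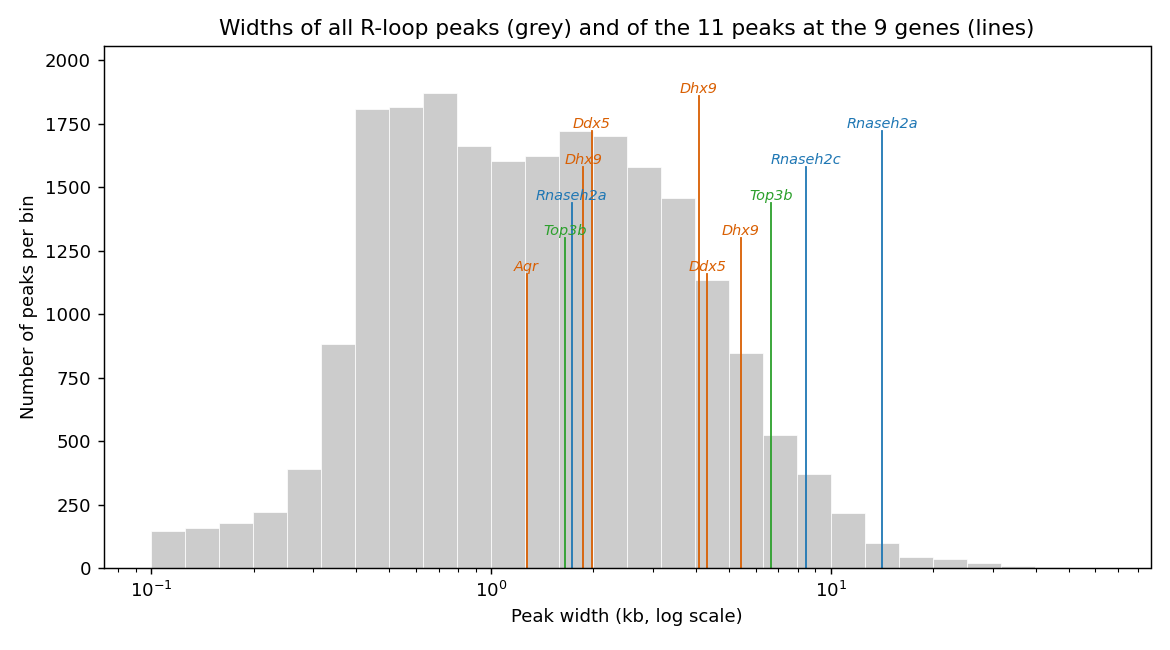
Widths of all R-loop peaks as grey bars (number of peaks per bin, width in kb on a log scale), with a line for each of the 11 peaks assigned to the 9 genes, labelled and coloured by kind of enzyme. The line heights carry no value. All but the peak of Aqr lie above the median of 1.32 kb, and that of Rnaseh2a reaches 14.2 kb.

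Edges of these wide peaks lay close to cut sites of the enzymes used to digest the DNA (EcoRI, HindIII, BsrGI, SspI and XbaI). Of the 22 edges of the 11 peaks, 16 were within 100 bp of a site, beside 28.3% of the edges of all peaks. In the 6 peaks of 4 kb or more, by the same unplanned limit, the count was 10 of 12, beside 39.5% of the edges of all peaks of that width. The Dhx9 TSS peak filled 98.3% of the span between the nearest sites outside it, a span made almost entirely of a single restriction fragment of 5.43 kb that holds the TSS. The TSS peak of Rnaseh2a filled 99.5% of its span, but had 15 sites inside it. The corresponding values were 97.3% for Rnaseh2c with 10 sites inside and 97.1% for the Dhx9 TES peak with 3. The other 2 peaks of 4 kb or more, at the TSS of Ddx5 and the TES of Top3b, filled less, 89% and 89.6%, and the 5 narrower peaks filled 50.9 to 59% of their spans. Digestion before the precipitation limits how finely DRIP-seq can place a hybrid, and the part of the cut sites in the extent of these peaks was not tested. The fragment holding the TSS was 1.81, 3.26 and 2.19 kb long in Rnaseh1, Rnaseh2b and Top1, within the 0.224 to 5.43 kb of the genes with a peak at the TSS.

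G content after the TSS differed between the genes. GC skew, the difference of G and C over their sum on the coding strand, was positive in the first 1 kb in 7 of the 9 genes, beside 64.9% of protein-coding genes. Dhx9 had the largest skew, 0.194, and 94.6% of protein-coding genes were lower. Its first 1 kb held 14 runs of 4 or more G and 3 of C. The other genes with a TSS peak had 0.0884 (Ddx5), 0.0542 (Rnaseh2a) and 0.0426 (Rnaseh2c), the last close to the median of all protein-coding genes of 0.039. Top3b and Aqr, whose peaks lie away from the TSS, had 0.11 and 0.0476.

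Of the genes without a peak, Top1 and Rnaseh2b had negative skew. Top1 was the richest of the 9 in GC, with 70.7% in the first 1 kb, above 96.8% of protein-coding genes, but its skew was -0.0976, and only 10.6% of genes were lower. Its 1 kb held 9 runs of 4 or more G and 19 of C, so that the GC content came more from C on the coding strand. Rnaseh2b had a skew of -0.0584 with 6 runs of G and 13 of C. Rnaseh1 went the other way, with a positive skew of 0.103 and few runs, 2 of G and 1 of C. The 3 genes without a peak thus did not have a common sign of skew. The 6 with a peak were all positive when the annotated gene start was used. The sign was negative at the protein-coding starts of Aqr and at some of those of Ddx5 and Top3b. The share with positive skew among all protein-coding genes with a peak is not given here.

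For comparison, the stretch of 60 bp with the largest G excess within 1 kb on either side of the TSS is shown for the 3 genes without a peak. They lie in intron 1 of each, at chr12:29335215-29335274 for Rnaseh1, chr14:62911803-62911862 for Rnaseh2b and chr2:160472136-160472195 for Top1, all on the plus strand.
Rnaseh1: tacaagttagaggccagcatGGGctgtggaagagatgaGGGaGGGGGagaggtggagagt
Rnaseh2b: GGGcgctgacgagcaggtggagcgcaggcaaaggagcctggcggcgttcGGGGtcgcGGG
Top1: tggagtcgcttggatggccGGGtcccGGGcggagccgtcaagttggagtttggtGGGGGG

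These stretches held 29 G and 5 C (Rnaseh1), 31 G and 14 C (Rnaseh2b) and 30 G and 11 C (Top1), each with 3 runs of 3 or more G. The genes without a peak thus contain G-rich stretches on the coding strand near the TSS as well. The number of runs was lower than the 4 to 6 in the genes with a TSS peak, but those were sought over the whole peak, which is a region of another length.

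The sign of the skew depended on the start used for some genes. For Aqr the annotated gene start is that of Aqr-008, which is not annotated as protein-coding. The protein-coding transcripts Aqr-001 and Aqr-004 start downstream of it, and their first 1 kb had skews of -0.0772 and -0.0818. Rnaseh2b-001 starts at 62950905, inside the gene, with a skew of 0.0741 in place of -0.0584 at Rnaseh2b-003. The starts of Ddx5-001 and 2 other protein-coding transcripts of Ddx5 had skews between -0.00322 and 0.00805, while Ddx5-003 and Ddx5-004 had 0.0884 and 0.115. A second protein-coding transcript of Top1, which starts at 160495270, had 0.197 in DNA of 36.6% GC. Whether these transcripts are made in NSPCs was not measured.

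**Figure D4:**
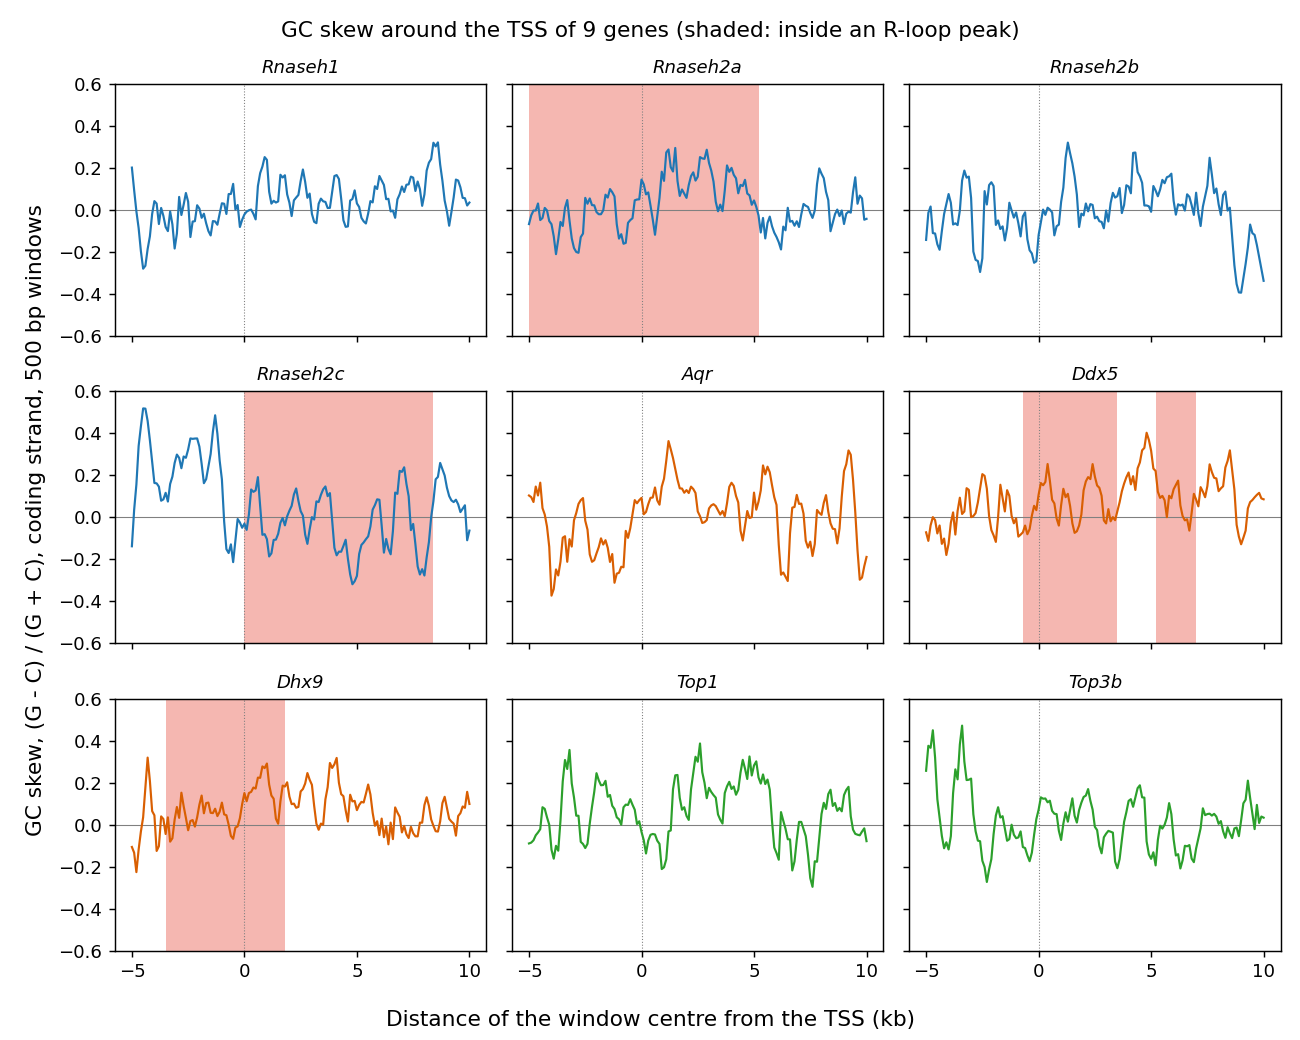
GC skew on the coding strand in windows of 500 bp from 5 kb upstream to 10 kb downstream of the TSS (kb), one panel per gene, with R-loop peaks shaded. Skew is positive over the first 1 kb of Dhx9 inside its peak, while it is below 0 just downstream of the TSS in Top1 and just upstream of it in Rnaseh2b, with no peak in either panel.

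The 35 other genes of R-loop handling on a list of the pathway were described in the same way. Peaks overlapped 23 of 35, again beside 39.6% of protein-coding genes, and the TSS was inside a peak in 12, beside 14.9%. Among other helicases the count was 7 of 12. Ddx21, a DEAD-box helicase of the nucleolus, had 3 peaks, one of them at its TSS. Dhx36, which unwinds G-quadruplexes, and Wrn, a RecQ helicase, each had 1 at the TSS, of 4.22 and 3.29 kb. Of the 5 without an overlapping peak, Ddx19a and Fancm had one within 2 kb, at 1.09 and 1.48 kb, and Blm, Ddx39b and Pif1, the last named after its value was seen, had none there.

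Of the other topoisomerase genes and Tdrd3, the partner of Top3b, 4 of 5 had a peak, which lay at the TSS in Top2b, Top3a and Tdrd3. In Tdrd3 this peak was 2.49 kb wide, whereas Top3b itself had none at the TSS. Top3a, the closest relative of Top3b, had peaks at both ends, with 6.38% of its length covered compared to 34.8% in Top3b. Of the genes of the THO/TREX complex, which packages nascent mRNA, counted with that of the splicing factor Srsf1, 7 of 8 had a peak. The TSS was covered in 5 of these, Thoc5, Thoc6, Thoc7, Thoc4 (now Alyref) and Srsf1, and 69% of Srsf1 lay under its peak of 5.05 kb.

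The spliceosome partners of Aqr had a peak in 1 of 3. The nuclease genes had one in 3 of 3, and Ercc4 and Ercc5, which encode the XPF and XPG endonucleases of excision repair, held the most peaks of the list, 6 and 4, none at the TSS. Among the other genes of Aicardi-Goutières syndrome, 1 of 4 had a peak, Adar, at the TSS, and Ifih1 had none within 2 kb. Of the genes of that disease in both lists, peaks were thus found in Rnaseh2a, Rnaseh2c and Adar. Rnaseh2b and the rest of these 4 genes had none, and 39.6% of all protein-coding genes had a peak.

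**Figure D5:**
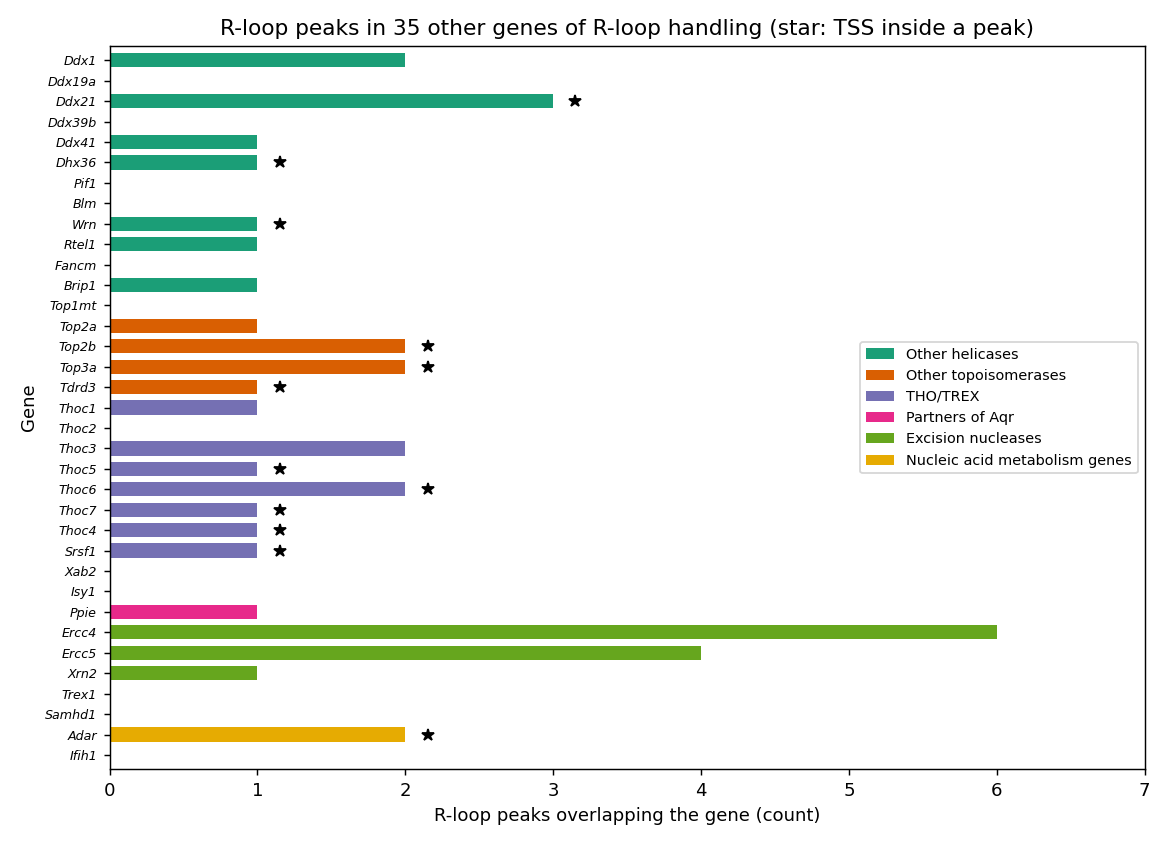
Number of R-loop peaks overlapping each of 35 other genes of R-loop handling, coloured by group, with a star where a peak contains the TSS. Ercc4 and Ercc5 hold 6 and 4 peaks with no star, 12 genes have a star, 5 of them in the THO/TREX group, and 12 genes have no bar.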

How the data were processed

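Peaks came from DRIP-seq of NSPCs. The authors trimmed reads (Trim Galore 0.6.6, per the labels), aligned them to NCBI37/mm9, removed duplicates, called peaks with a Hidden Markov Model and deposited 1 list of positions in bp, with no count or score. How the 3 replicates were combined is not given in the sources used here. The input sample was not used here, and depth is unknown. Starts were read as 0-based. Genes came from GENCODE M1 (mm9), longest protein-coding transcripts gave exon numbers, and an overlap counted from 1 bp. Every member was named with every peak, and of the other pathway genes those with at least 3 peaks, those with a TSS inside a peak and up to 5 without a peak, in alphabetical order, beside genes sharing a peak with a member. Results for 1 gene of the pathway list are not reported here, and it was left out of the counts. Members and lists were chosen with earlier results of these data known. Counts were checked on simulated data. The alternatives were peak size, merging, gene limits, overlap, distance, skew length and background. Calculations used Python 3.11.15, numpy 2.4.6 and Biopython 1.88, and figures matplotlib 3.10.9.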

Additional observations from a re-analysis of the deposited data

How the results depend on the processing

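Of 68 alternative values for 21 counts, shares and medians, 65 were within 1.5 times the reported value. Counts and shares have no direction to change, and they include the peak counts of each of the 9 genes. The median GC skew stayed positive. The signs of skew of single genes were not among these values, and some changed with the start used, as given above. Peaks overlapped 6 of the 9 genes with only peaks of at least 1 kb, with peaks closer than 1 kb merged and with the longest protein-coding transcript as the gene, and 5 when the midpoint or the larger part of the peak had to be inside, since the Rnaseh2c peak extends mostly past its gene. The share of all protein-coding genes was not recomputed under these settings. With only peaks of at least 1 kb, the other genes of R-loop handling with a peak fell from 23 to 18. The median share covered over the 9 genes rose from 16.2% to 24.1% with 2 kb added to each side. With distances chosen after seeing the data, 9 of 22 edges were within 50 bp of a cut site, beside 16.4% of all edges, and 18 within 200 bp, beside 42.8%. Using the longest protein-coding transcript, also chosen after seeing the data, gave a median GC skew of 0.0426 in place of 0.0542. No paired analysis was possible because 1 list of positions was analysed. Absence of a peak does not show absence of R-loops, as depth is unknown.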
